A study of Mus musculus with 6 samples.

Results

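The imprinted Dlk1 and Meg3 domain lies on mouse chromosome 12 and was taken here as positions 110685001 to 110812000 of the mm9 build, 1-based as are all positions below. Its members were the CpG sites in this interval that had at least 10 reads in each of 6 libraries. There were 118 such sites, of 943307 over the genome and of 274 sites in the interval that had a read in any library. The selection rule placed Dlk1 at about 110690001 to 110700000, the intergenic control region at about 110764001 to 110770000 and the start of Meg3 at about 110779001. These bounds are approximate, and no gene annotation of mm9 was used, so no site is assigned to an exon, intron or UTR by its mm9 position.

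DNA came from kidney cortex and outer medulla of male wild-type C57BL/6J mice, and each of 3 groups had 2 libraries. In the UUO + 5AZA group (5AZA 1 and 5AZA 2) the left ureter was tied and cut, which blocks urine flow and leads to kidney fibrosis, and 5AZA was injected intraperitoneally at 1 mg/kg/day. 5AZA is the labels' name for the drug; aza-cytosine drugs of this name inhibit DNA methyltransferases. In the UUO + saline group (saline 1 and saline 2) the same obstruction was combined with daily saline, and both obstructed groups were labelled with 7 days. In the sham group, surgery was done without tying the ureter. Sham 1 belongs to the 7-day obstruction by its label, and sham 2 to an ischemia/reperfusion model, with 48 h in its name. Whether the 2 libraries of a group came from separate mice is not in the labels, so p-values measure the spread between these libraries only. The study set out to find genes that are differentially methylated in kidney fibrosis.

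Imprinted genes are expressed from 1 parental chromosome. Dlk1, a transmembrane protein with EGF-like repeats that is related to Notch ligands, is expressed from the paternal chromosome, and Meg3, a long non-coding RNA, from the maternal one. The intergenic control region is methylated on the paternal chromosome and unmethylated on the maternal one, and the Meg3 promoter takes on methylation of the paternal copy later in development. In tissue that holds both parental copies, a site methylated on 1 of them reads as an intermediate level. The deposited values are summed over both copies, so no level here can be assigned to a parental allele.

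The Meg3 promoter is shown because it held the covered sites nearest to the start of an imprinted gene of the domain. The RefSeq sequence runs from 250 bases before to 50 bases after the Meg3 start site (GRCm38.p6, chr12:109540746-109541045, plus strand), and the capitals mark the 3 CpGs that were covered at least 10 times in every library. They lie 103, 77 and 60 bases before the start site, and the first is in the promoter's only CCGG, the sequence at which the enzyme MspI cuts.
Meg3 promoter: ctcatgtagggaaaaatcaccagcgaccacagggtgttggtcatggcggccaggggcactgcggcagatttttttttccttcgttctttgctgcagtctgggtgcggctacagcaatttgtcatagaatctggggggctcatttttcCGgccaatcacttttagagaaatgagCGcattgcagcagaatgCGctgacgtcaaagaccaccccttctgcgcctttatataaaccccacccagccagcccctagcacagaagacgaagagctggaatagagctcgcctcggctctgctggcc
The sequence holds 13 CpGs, of which 5 had a deposited site. It was placed on the deposited mm9 positions by the spacing of its CpGs, which fitted at exactly 1 offset without a conflict; positions were not converted between builds. The RefSeq promoter of Dlk1 was placed in the same way at 1 offset. Of its 9 CpGs, 5 had a deposited site, with at most 1 read in any library, so the Dlk1 promoter itself was not measured.

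The assay was reduced representation bisulfite sequencing, in which MspI fragments are read after bisulfite treatment. A site's methylation level is the percent of its reads that were methylated. Covering reads over all deposited sites came to 37728517 in sham 2 and to 57853745 to 76730132 in the other 5 libraries. The 118 domain sites had 10 to 160 reads per library, with a median of 41, and sham 2 had the fewest reads summed over them, 3189, against 5612 to 7458 in the other libraries. Sham 2 also weighed on the genome as a whole: the median of saline minus sham over all 1 kb windows was +1.13 points, +0.468 without sham 2 and +1.84 without sham 1. Intervals below are Wilson 95% intervals. They cover counting error only, since reads amplified by PCR without molecular identifiers are not independent molecules.

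The covered sites were mostly either unmethylated or highly methylated. By its mean over the 6 libraries, 38 sites were under 10%, 4 lay at 10 to 30%, 19 at 30 to 70% and 57 at 70% or more. The low sites lay before and within Dlk1, while each covered site beyond the Dlk1 segment had a mean above 30%. Averaged over the 118 sites, the level was 51.4% ± 1.97 in 5AZA, 54.2% ± 0.822 in saline and 52.3% ± 0.655 in sham (mean ± SD of 2 libraries). The single libraries overlapped between 5AZA and sham, with 52.8% and 50.0% in 5AZA 1 and 5AZA 2 against 52.8% and 51.8% in sham 1 and sham 2. The saline libraries, at 54.7% and 53.6%, lay above the other 4.

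**Figure D1:**
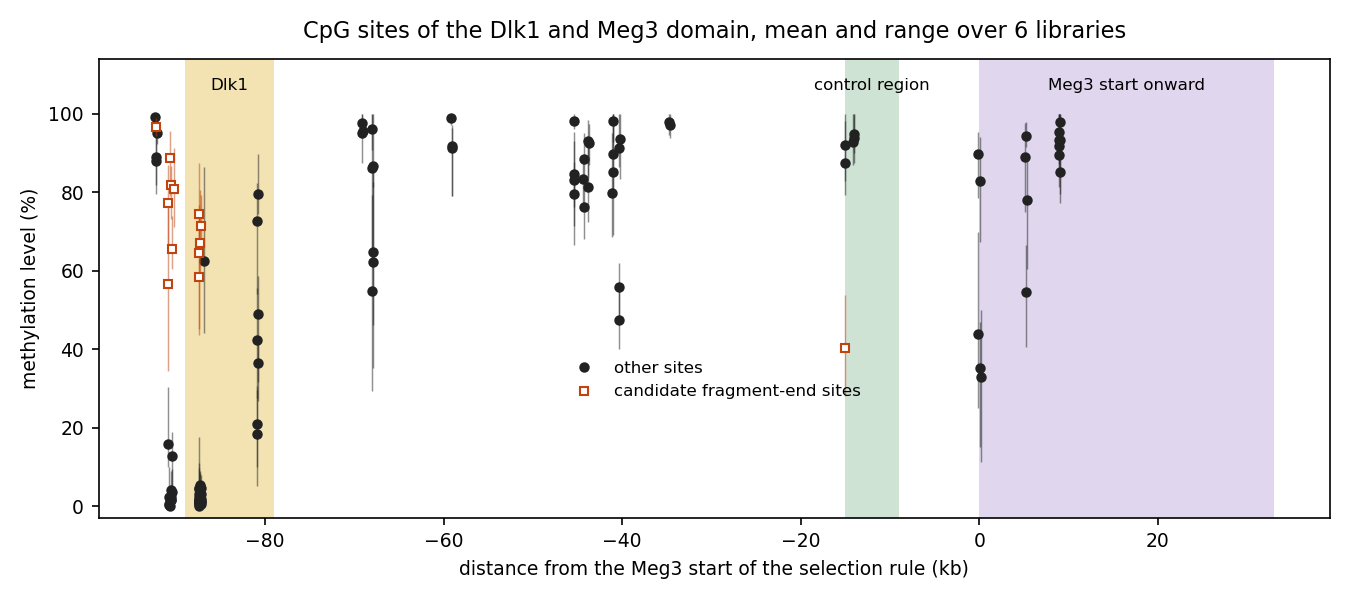
Each of the 118 covered CpG sites is plotted by its distance from the Meg3 start of the selection rule (x axis, kb) and its methylation level (y axis, %); points are means over the 6 libraries, lines span the lowest to the highest library, open squares are candidate fragment-end sites, and shaded bands are the Dlk1, control region and Meg3 segments of the rule. The 38 sites under 10% lie before and within the Dlk1 segment, and the 4 covered sites at the start of the control region band are high. Intermediate sites recur inside Dlk1, between Dlk1 and the control region and at the Meg3 start.

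Before and within Dlk1, methylation was low at dense CpGs. The Dlk1 segment held 41 covered sites, of which 28 averaged under 10%, and the 5 kb before it held 23, of which 10 did. In the window 110691001 to 110692000, 28 of 33 covered sites averaged 0 to 5.44%, and the mean of these 28 was 1.34% and 2.60% in 5AZA 1 and 5AZA 2, 2.76% and 1.86% in saline 1 and saline 2 and 2.33% and 1.51% in sham 1 and sham 2. At these sites the 3 groups overlapped. The most deeply read sites of the Dlk1 segment were 110691766 and 110691770, with 646 reads each and the same reads in every library. The first averaged 3.09% over the libraries. The second had 0% of 111 reads and 0% of 74 reads in 5AZA 1 and 5AZA 2, 0.625% of 160 reads and 0.840% of 119 reads in saline 1 and saline 2, and 2.46% of 122 reads and 0% of 60 reads in sham 1 and sham 2. In the window 110688001 to 110689000, before Dlk1, 12 of 18 covered sites averaged 0 to 15.9%. The mean of these 12 was 4.32% and 3.07% in 5AZA 1 and 5AZA 2, 5.89% and 4.77% in saline 1 and saline 2, and 2.84% and 2.68% in sham 1 and sham 2. Saline was above sham in each library, by 2.57 points between group means.

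The other 11 sites of these windows stood among the low ones at high levels. They are candidate fragment-end sites, that is, sites where the counts may hold cytosines filled in at a cut end: the labels' protocols give methylated dCTP in the end repair mix. A candidate has as many reads as both its neighbours together, to within 5%, or a mean of at least 30% in a window of at least 10 sites whose median is under 5%. Of these 11, 8 were picked by the second criterion alone, so their high level is what chose them. The remaining 3, which also met the coverage criterion, averaged 65.6 to 81.9%. In 110691001 to 110692000 the 5 candidates averaged 69.4% and 67.7% in 5AZA 1 and 5AZA 2, 70.3% and 67.5% in saline 1 and saline 2 and 65.1% and 63.2% in sham 1 and sham 2. What part end filling had in these levels was not tested.

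**Figure D2:**
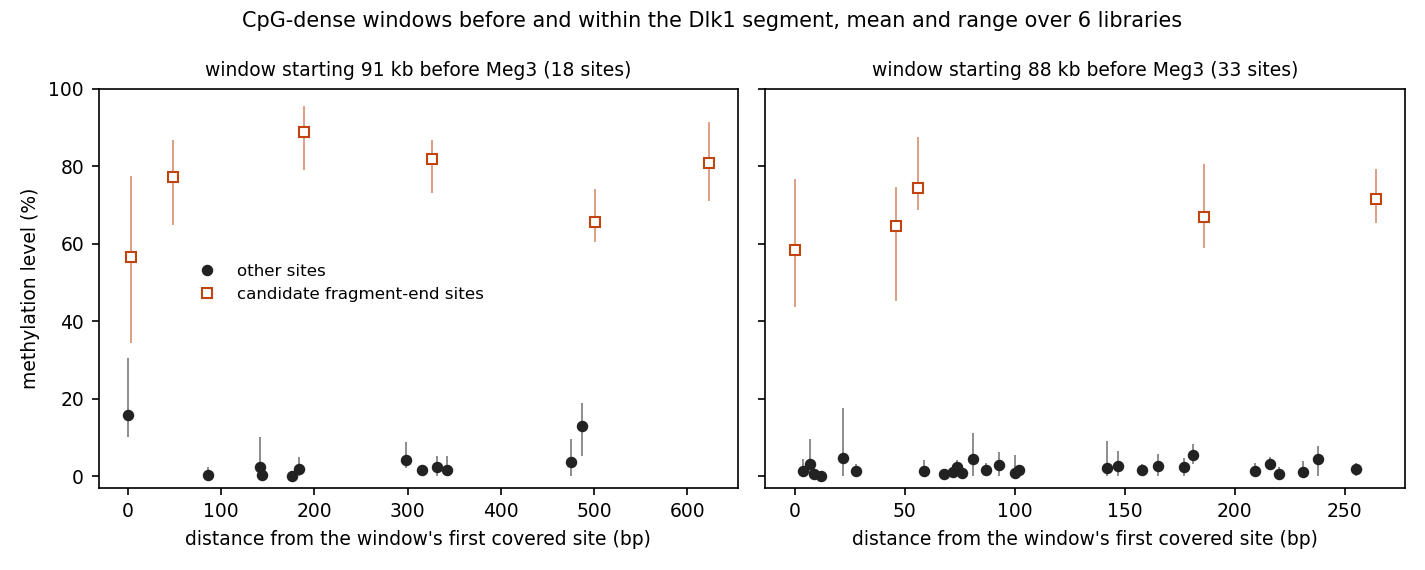
The CpG-dense windows before Dlk1 (left, 18 sites) and within the Dlk1 segment (right, 33 sites) are plotted with the methylation level (y axis, %) against the distance from the window's first covered site (x axis, bp); points are means over 6 libraries and lines span the lowest to the highest library. Filled circles are the low sites and open squares the candidate fragment-end sites, which average 56.7 to 88.8% on the left and 58.4 to 74.5% on the right.

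Further into Dlk1, the window 110698001 to 110699000 was intermediate as a whole. Its 7 sites, with 278 to 927 reads per library, differed from each other more than the libraries did: the site means ran from 18.3% at 110698065 to 79.5% at the last site, 110698228. The windows below are described by methylated reads over all reads of their sites. That level was 51.8% and 47.1% in 5AZA 1 and 5AZA 2, 48.6% and 48.3% in saline 1 and saline 2, and 42.9% and 34.5% in sham 1 and sham 2. Both obstructed groups lay above both sham libraries, and the obstructed groups overlapped each other. The group means were 49.4% ± 3.31 in 5AZA, 48.5% ± 0.212 in saline and 38.7% ± 5.94 in sham (mean ± SD of 2 libraries). The difference was +9.72 points for saline minus sham (edgeR adjusted p = 0.374) and +10.7 points for 5AZA minus sham (edgeR adjusted p = 0.210), neither of which passed the threshold of 0.05. Without sham 2 these differences were +5.52 and +6.50 points.

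Between Dlk1 and the control region, 28 of 34 covered sites averaged 70% or more and none was under 30%. The segment averaged 81.3% ± 2.81 in 5AZA, 86.6% ± 0.154 in saline and 83.2% ± 0.260 in sham (mean ± SD of 2 libraries). The widest gap between groups anywhere in the domain lay here, in the window 110711001 to 110712000. This window had 3 sites, with 38 to 108 reads per library summed over them and 12 to 36 at a single site. It had 74.0% and 75.9% in 5AZA 1 and 5AZA 2, 77.8% and 86.2% in saline 1 and saline 2, and 54.9% and 57.9% in sham 1 and sham 2. Both sham libraries lay below the other 4, and the saline libraries above the 5AZA ones. Saline minus sham came to +25.6 points (edgeR adjusted p = 0.171) and 5AZA minus sham to +18.5 points (edgeR adjusted p = 0.241), so neither passed over all windows. Leaving out any 1 library moved the first difference to between 21.4 and 29.8 points.

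That window holds the site with the smallest unadjusted p of the domain for saline minus sham, at 110711031. It read 68.8% and 66.7% in 5AZA 1 and 5AZA 2, 86.1% and 86.2% in saline 1 and saline 2, and 35.3% and 46.2% in sham 1 and sham 2, where it had only 17 and 13 reads. Its difference was +45.4 points for saline minus sham (edgeR adjusted p = 0.937). The sham intervals were wide, 17.3 to 58.7% in sham 1 and 23.2 to 70.9% in sham 2, against 71.3 to 93.9% in saline 1 and 69.4 to 94.5% in saline 2. The neighbouring site at 110711038 (+26.7 points) had the same number of reads per library. The last site of the window, 110711054, did too except in sham 2, so these sites are not independent. At 110711054 the difference was only +3.65 points, with 83.3% and 89.7% in saline 1 and saline 2 against 82.4% and 83.3% in sham 1 and sham 2.

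The covered sites of the control region segment were high, not intermediate. They lie at the edge of a segment with approximate bounds, so whether they belong to the control region itself was not checked. All 4 covered sites lie in its first 1 kb, at 110764001, 110764904, 110764923 and 110764928, and the last 3 had equal coverage in each library. The mean of the 4 was 92.5% ± 5.15 in 5AZA, 93.7% ± 0.185 in saline and 94.3% ± 5.38 in sham (mean ± SD of 2 libraries). Summed over reads, the window held 96.3% and 89.0% in 5AZA 1 and 5AZA 2, 94.0% and 93.8% in saline 1 and saline 2 and 90.4% and 97.7% in sham 1 and sham 2, from 43 to 251 reads. The 3 groups overlapped, with 5AZA minus saline at -1.25 points (edgeR adjusted p = 0.778), 5AZA minus sham at -1.39 points (adjusted p = 0.996) and saline minus sham at -0.134 points (adjusted p = 0.888). The last 3 sites also had the most reads, 234 each, and their means over the libraries ran from 92.9% at 110764904 upward. At 110764928 there were 94.7% of 38 reads and 95% of 40 reads in 5AZA 1 and 5AZA 2, 97.1% of 68 reads and 95.7% of 46 reads in saline 1 and saline 2, and 87.5% of 32 reads and 100% of 10 reads in sham 1 and sham 2. A further 8 sites of the region fell below the coverage minimum. Only 2 of them had reads in saline 1 and in saline 2, 5 in sham 1, sham 2 and 5AZA 1, and 8 in 5AZA 2. Pooled, 100% of 41 reads and 88.5% of 87 reads were methylated in 5AZA 1 and 5AZA 2. Values were 98.5% of 68 reads and 97.8% of 46 reads in saline 1 and saline 2, and 91.9% of 86 reads and 94.1% of 17 reads in sham 1 and sham 2. The libraries read different numbers of these sites, so the pools were not compared. No site after 110764928 was covered 10 times in all libraries in the remaining part of the 6 kb, so those bases were not measured here.

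An intermediate site lies just before the region, at 110763965. It read 53.5% and 38.0% in 5AZA 1 and 5AZA 2, 28.0% and 32.7% in saline 1 and saline 2 and 35.1% and 53.8% in sham 1 and sham 2. It is also a candidate fragment-end site by its coverage, and the part of end filling in its level was not tested.

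Around the Meg3 start, intermediate and high sites alternated over a short distance. The 5 covered sites within 2 kb of the start given by the rule averaged 52.2% ± 9.16 in 5AZA, 54.6% ± 4.69 in saline and 64.0% ± 4.60 in sham (mean ± SD of 2 libraries). The CpG in the CCGG of the sequence above, at 110779103, was the most deeply read of them, with 468 reads. Its reads equalled those of both deposited neighbours together in 5 of 6 libraries, and in sham 2 it had 39 reads against 42. It was not counted as a candidate fragment-end site because the neighbour before it, at 110779060, was below the coverage minimum, and the part of end filling in its level was not tested. It had 90.5% (80.7 to 95.6%) in 5AZA 1 and 67.4% (57.4 to 76.0%) in 5AZA 2, 94.2% (84.4 to 98.0%) in saline 1 and 86.4% (77.7 to 92.0%) in saline 2, and 81.7% (74.2 to 87.4%) in sham 1 and 76.9% (61.7 to 87.4%) in sham 2. The intervals of the 5AZA libraries do not overlap each other, and the saline libraries lay above the sham ones. The neighbour before it shared these reads unevenly. It had 9 reads against 63 at the CCGG site in 5AZA 1 and 42 against 95 in 5AZA 2. In saline 1 and saline 2 it had 2 against 52 and 23 against 88. In sham 1 and sham 2 it had 65 against 131 and 22 against 39. Whether this mix bears on the differences between libraries was not tested.

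The other capitalised CpGs were intermediate to low. The CpG 77 bases before the start site, at 110779129, read 44.4% and 15.1% in 5AZA 1 and 5AZA 2, 32% and 27.7% in saline 1 and saline 2, and 47.0% and 45% in sham 1 and sham 2. Another CpG, 60 bases before it, at 110779146, read 40.7% and 11.3% in 5AZA 1 and 5AZA 2, 30% and 23.1% in saline 1 and saline 2, and 42.4% and 50% in sham 1 and sham 2. At both sites all 4 obstructed libraries lay below both sham libraries, and 5AZA 1 lay close to them. Both sites had equal coverage in all 6 libraries, 20 to 66 reads, so they count the same reads. Among the sites farther out, 110778847 was intermediate, at 39.1% and 43.6% in 5AZA 1 and 5AZA 2, 45.2% and 25% in saline 1 and saline 2 and 70% and 40.7% in sham 1 and sham 2, and 110778854, only 7 bases on, was high at 78.6 to 95.3%. The 70% of sham 1 at 110778847 came from only 10 reads (39.7 to 89.2%), against 115 reads in saline 1.

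The 3 promoter CpGs form the window 110779001 to 110780000. It held 60.2% and 38.8% in 5AZA 1 and 5AZA 2, 52.6% and 50% in saline 1 and saline 2 and 63.1% and 62.0% in sham 1 and sham 2, so all 4 obstructed libraries lay below both sham libraries. This level mixes the high CpG in the CCGG with the lower 2. Saline minus sham was -11.3 points (edgeR adjusted p = 0.544), 5AZA minus sham was -13.1 points (edgeR adjusted p = 0.321) and 5AZA minus saline was -1.80 points (edgeR adjusted p = 0.876), and none passed the threshold. The 5AZA libraries were far apart here: without 5AZA 1 the difference from saline was -12.5 points and without 5AZA 2 it was +8.92 points, and the difference from sham was -23.8 and -2.34 points. Without the CpG in the CCGG, a setting added after the data were seen, the window held 42.6% and 13.2% in 5AZA 1 and 5AZA 2, 31% and 25.4% in saline 1 and saline 2 and 44.7% and 47.5% in sham 1 and sham 2. Differences were then -17.9 points for saline minus sham, -18.2 for 5AZA minus sham and -0.292 for 5AZA minus saline, with no test, since 2 sites are too few for a tested window.

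**Figure D3:**
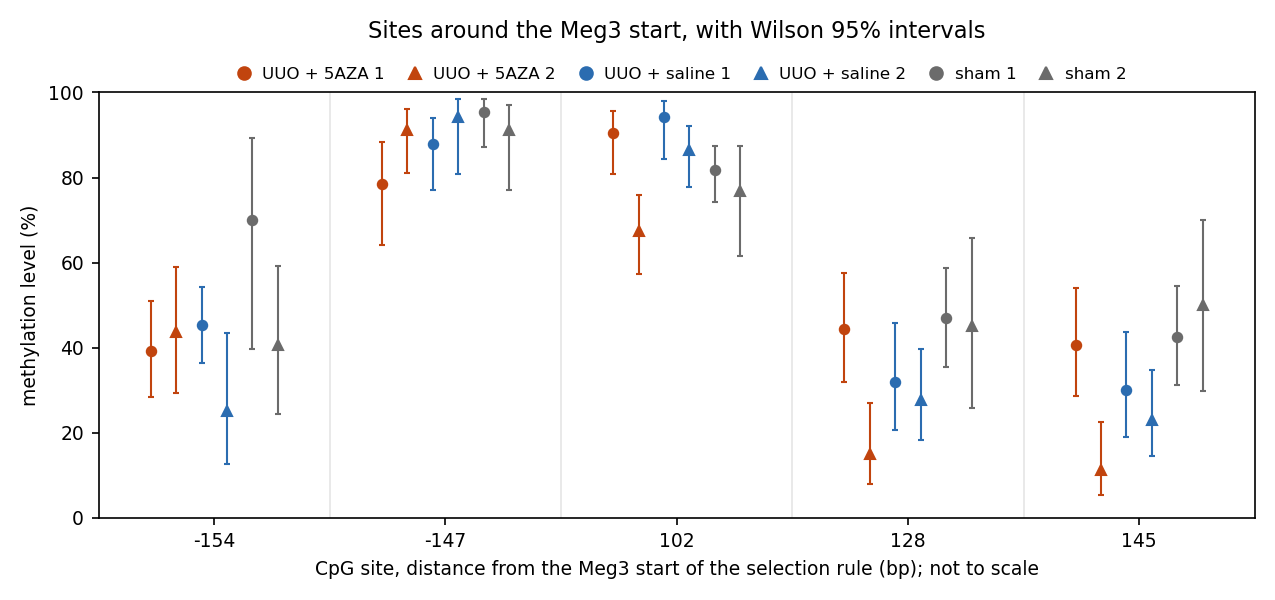
The 5 covered sites within 2 kb of the Meg3 start of the selection rule are plotted by distance (x axis, bp, not to scale) with their methylation level (y axis, %) in each library; bars are Wilson 95% intervals. At the sites 77 and 60 bases before the RefSeq start site, which are the 2 rightmost, 5AZA 2 (15.1% and 11.3%) lies well below 5AZA 1 (44.4% and 40.7%), and both saline libraries lie below both sham libraries.

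Beyond the Meg3 start, the 11 sites of the stretches at 110784119 to 110784400 and 110787886 to 110788036 were mostly high, with means of 54.7 to 97.9%. In the window 110784001 to 110785000 the level was 76.4% and 76.0% in 5AZA 1 and 5AZA 2, 83.7% and 87.4% in saline 1 and saline 2, and 82.4% and 79.8% in sham 1 and sham 2. Both 5AZA libraries lay below the other 4. 5AZA minus saline was -9.33 points (edgeR adjusted p = 0.0885), which passed the threshold under a single alternative, a coverage minimum of 5, with -13.5 points and an adjusted p of 0.0389. The edgeR or limma adjusted p of this difference ran from 0.0389 to 0.320 over the alternatives that kept windows of 1 kb. In the window 110787001 to 110788000 the level was 87.5% and 85.0% in 5AZA 1 and 5AZA 2, 92.7% and 93.8% in saline 1 and saline 2, and 92.8% and 93.8% in sham 1 and sham 2. Again both 5AZA libraries were the lowest, with -7.01 points for 5AZA minus saline (edgeR adjusted p = 0.0821) and -7.08 points for 5AZA minus sham (adjusted p = 0.248).

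The comparison of 5AZA with saline asks what the drug changed in the obstructed kidney. In the domain, 14 of 16 tested windows had a lower mean in 5AZA and 2 a higher one, and none passed the test. A window was tested when it was 1 kb long and had at least 3 covered sites, which took in 107 of the 118 sites. edgeR called 0 of the 16 at an adjusted p under 0.05, against 1.55% of all 89813 windows. That background was itself 0 windows when candidate fragment-end sites were left out. An unadjusted p under 0.05 was reached by 4 of the 16 in edgeR, against 20825 of all 89813, and by 4 in limma, against 18379. In 7 of the 16 windows 5AZA was below saline in every library (43.8%), against 49.1% of all windows, and in none was it above in every library, against 5.69%. The domain's shares were thus near those of the genome, and the median difference was -3.83 points in the domain against -2.70 over all windows. The upper quartile over all windows was -0.323 points, so most windows of the genome also had a lower mean in 5AZA.

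The largest difference of this comparison was in the window 110737001 to 110738000, between Dlk1 and the control region. Its 3 sites had 45 to 79 reads per library when summed, but only 13 to 28 at a single site. Coverage was equal or nearly equal at 110737896 and 110737928, so much the same reads were counted at both. The level was 75.6% and 76.9% in 5AZA 1 and 5AZA 2 against 93.1% and 90.9% in saline 1 and saline 2. The difference came to -15.8 points (edgeR adjusted p = 0.0889), and it lay between -16.9 and -14.7 points with any 1 library left out. The window 110719001 to 110720000 followed the same order, with 93.0% and 85.7% in 5AZA 1 and 5AZA 2 against 96.4% and 97.7% in saline 1 and saline 2 (-7.71 points, edgeR adjusted p = 0.119). Of the 16 windows, 10 averaged 80% or more, and in all 10 the 5AZA mean was below the saline mean, with a median of -4.99 points. Over the 46066 windows of that level in the genome the median was -3.64 points and the upper quartile -1.81 points, so most of them were lower too. In 5 of the 10 the libraries did not overlap, and 62.1% of such windows in the genome had both 5AZA libraries below both saline ones.

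The comparison of saline with sham bears on obstruction, but sham 2 belongs by its label to another model and time. A difference due to obstruction cannot be told apart from these. Of the 16 windows, 10 had a higher mean in saline and 6 a lower one, and edgeR called 0, against 0.0501% of all windows. An unadjusted p under 0.05 was reached by 2 in edgeR, against 9363 of all 89813 windows, and by 2 in limma, against 9756. Saline was above sham in every library in 4 windows (25%), against 32.3% of all windows, and below it in 2 (12.5%), against 9.73%. The 4 were 110698001 in Dlk1, 110711001 and 110737001 between Dlk1 and the control region and 110784001 after the Meg3 start. The 2 were 110734001, which differed by -0.699 points, and the Meg3 promoter window 110779001. The domain's median was +1.31 points, against +1.13 over all windows.

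Set against sham, 5AZA had 4 windows with a higher mean and 12 with a lower one. edgeR called 0, against 0.00111% of all windows. An unadjusted p under 0.05 was reached by 5 in edgeR, against 13219 of all 89813 windows, and by 4 in limma, against 12357. 5AZA was above sham in every library in 3 windows (18.8%), against 12.9% of all windows, and below it in 7 (43.8%), against 31.9%. The median was -2.68 points in the domain and -1.12 over all windows. Of the 10 domain windows averaging 80% or more, 5AZA was below sham in every library in 5 and above in 0, with a median of -3.97 points. Over all windows of that level, 50.5% were below and 2.99% above in every library, with a median of -2.97 points. The 3 comparisons share libraries, so their differences are not independent of each other.

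**Figure D4:**
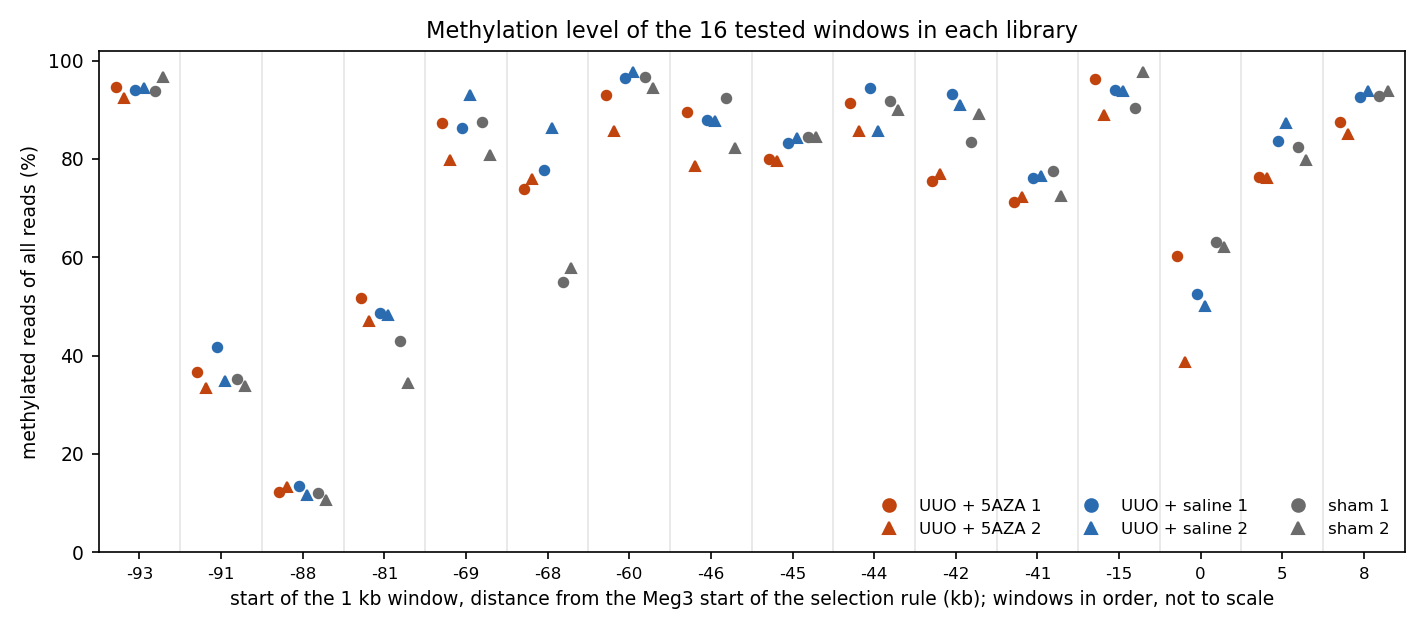
The methylation level of each of the 16 tested windows (y axis, methylated reads of all reads, %) is shown for the 6 libraries, with windows in genome order along the x axis and labelled by the distance of their start from the Meg3 start of the selection rule (kb). Sham lies lowest at 110711001, 5AZA lies lowest at 110737001 and in both windows after the Meg3 start, and 5AZA 1 and 5AZA 2 are far apart at the Meg3 promoter.

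**Figure D5:**
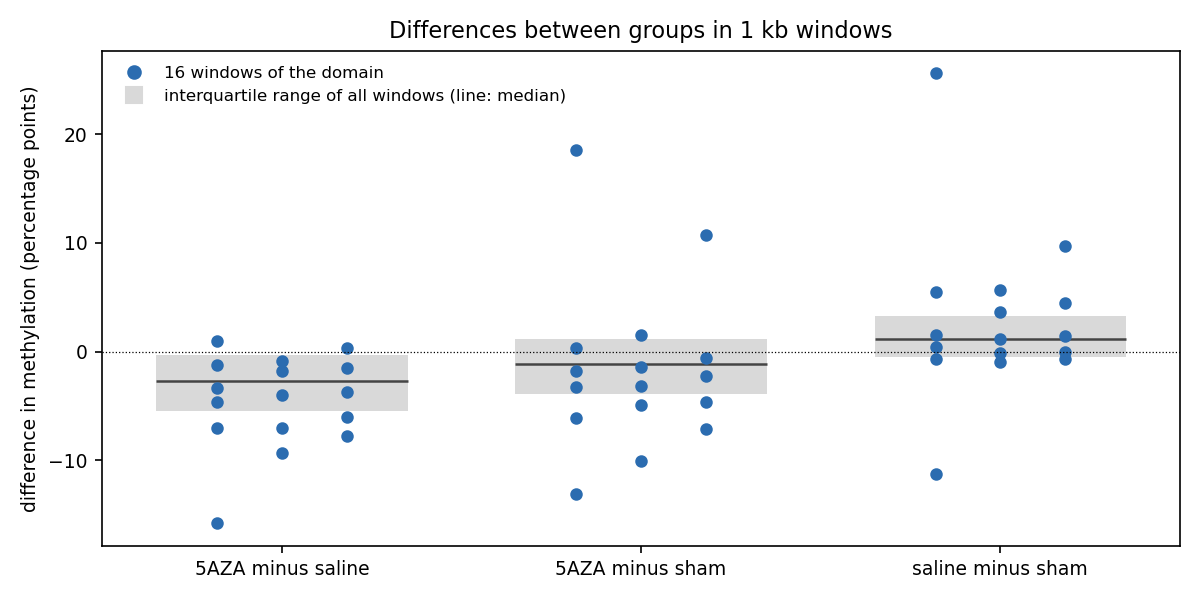
Differences between group means (y axis, percentage points) are shown for the 16 windows of the domain (points, spread sideways for legibility) in each comparison; grey boxes span the interquartile range of all 89813 windows and lines are their medians. The lowest and highest differences of the domain were -15.8 and +0.977 points for 5AZA minus saline, -13.1 and +18.5 for 5AZA minus sham and -11.3 and +25.6 for saline minus sham.

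Single sites gave no call either. Of the 118 sites, 116 were tested and 2 were left out because all their reads in all libraries were methylated or all were unmethylated. For 5AZA minus saline edgeR called 0 of them, against 0.00174% of 920122 sites. An unadjusted p under 0.05 was reached by 6 in edgeR, against 47959 over the genome, and by 10 in limma, against 79548. For saline minus sham edgeR called 0, against 0.00283%, with 6 unadjusted against 36679 in edgeR and 8 against 67740 in limma. For 5AZA minus sham it called 0, against 0.00152%, with 4 unadjusted against 32396 in edgeR and 10 against 57366 in limma. The site with the smallest p for 5AZA minus saline was 110709855, between Dlk1 and the control region, at 87.5% and 87.5% in 5AZA 1 and 5AZA 2, 100% and 100% in saline 1 and saline 2 and 95.5% and 100% in sham 1 and sham 2 (-12.5 points, edgeR adjusted p = 0.902). The one for 5AZA minus sham was 110788033, after the Meg3 start, at 89.4% and 79.5% in 5AZA 1 and 5AZA 2, 94.0% and 98.0% in saline 1 and saline 2 and 100% and 100% in sham 1 and sham 2 (-15.6 points, edgeR adjusted p = 0.948).

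Over whole segments, the differences can be set against the spread of the libraries but not called, since the exact permutation test of 2 libraries against 2 cannot give a p under 0.333. That smallest p was reached for 5AZA minus saline from Dlk1 to the control region (-5.34 points) and from the Meg3 start onward, where the level was 78.2% and 70.5% in 5AZA 1 and 5AZA 2, 81.5% and 82.0% in saline 1 and saline 2, and 82.6% and 82.5% in sham 1 and sham 2 (-7.44 points against saline, -8.19 against sham). It was also reached in the Dlk1 segment for saline minus sham (+2.43 points) and 5AZA minus sham (+2.76 points), from Dlk1 to the control region for saline minus sham (+3.48 points), and from the Meg3 start onward for saline minus sham (-0.751 points). Within 2 kb of the Meg3 start it was reached for saline minus sham (-9.46 points) and 5AZA minus sham (-11.8 points), and over the whole domain for saline minus sham (+1.85 points) and 5AZA minus saline (-2.77 points). Some of these signs changed under alternatives given below. They include saline minus sham from Dlk1 to the control region and from the Meg3 start onward, and 5AZA minus saline over the whole domain. In the control region and before Dlk1 the groups overlapped in every comparison. The segment from the Meg3 start onward begins at the approximate start of the rule. It therefore includes the capitalised promoter CpGs, which lie before the RefSeq start site.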

How the data were processed

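Each of the 6 kidney libraries had 1 deposited table. MspI digestion, end repair and adenylation in a mix with methylated dCTP, selection of inserts of 40 to 120 and 120 to 220 bp, bisulfite treatment and PCR are given in the labels' protocols. Bowtie and mm9 are named in the submitters' processing notes; how reads were trimmed, called and filtered is not given in the sources used here, nor are versions. No table has a header. The authors deposited counts of covering and of methylated reads per CpG site, and beside them a methylation fraction, which equalled the ratio of these counts as far as it was rounded. The raw counts were used, and positions were read as 0-based starts and printed 1-based.

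Libraries were grouped by the treatment in the labels, 2 per group. Sites with at least 10 reads in all 6 libraries were kept. The segment level is the mean of the sites' percent, and groups were compared by the two-sided exact permutation test. The edgeR 4.0.16 quasi-likelihood test (glmQLFit, glmQLFTest; R 4.3.3) was applied to methylated and unmethylated counts of all 6 libraries in 1 fit, with library intercepts and group terms for the methylated counts. This was done per site and per 1 kb window with at least 3 sites, over the whole genome, with Benjamini-Hochberg adjustment. In data simulated on 89813 windows, the window test recovered 9% of changes of 10 points and 76% of changes of 20 points for saline against sham, and 7% and 69% for 5AZA against saline. There were 5 calls among unchanged windows in each. The site test and 5AZA minus sham were not tested on simulated data.

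Alternatives were coverage minimums of 5 and 20, limma 3.58.1 on log2 ratios with 1 added to each count, windows of 500 and 2000 bp, no minimum of sites, the 4 libraries compared alone, no candidate fragment-end sites, no sites among the deepest 0.1%, pooled reads or site medians for segments, a replicate block and each library left out. A candidate's neighbours lay within 220 bp, each with at least 10% of its coverage. There were 106089 candidates over the genome.

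All windows of the domain were accounted for. The rule for single sites named the site with most reads (with ties) in the Dlk1 segment, the control region and the Meg3 flank, and the site with the smallest p of each comparison. Other windows and sites given by value, and the stretches of neighbouring sites, were chosen after their values were seen. The members and lists were chosen with earlier results of these data known. Sequences are from RefSeq (GRCm38.p6), where both genes matched a promoter entry. Software was scipy 1.17.1, pandas 2.3.3, numpy 2.4.6, matplotlib 3.10.9 and Python 3.11.15.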

Additional observations from a re-analysis of the deposited data

How the results depend on the processing

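In the domain, 0 windows and 0 sites were called by edgeR in each comparison under every alternative run, limma and the replicate block included, except that with a coverage minimum of 5 the count for 5AZA minus saline was 1 window. Signs were compared only over the alternatives that kept windows of 1 kb. Among the 16 windows, the sign of the difference never changed in 8 windows for 5AZA minus saline, 10 for 5AZA minus sham and 10 for saline minus sham. The labels give the saline and 5AZA libraries the same numbers. Their deviations over windows correlated at 0.076, which does not settle whether the numbers mark pairs, and the main fit left them unpaired. With the replicate block 6890 windows of the genome were called for 5AZA minus saline, against 166 with the same 4 libraries and no block. The block gave 22 sites.

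With so few windows in the domain, a count of 0 could hardly move and says little of stability. Over the genome the counts of calls depended on the settings. For windows, saline minus sham had 45 calls, 0 with limma, 0 without candidate fragment-end sites, 72 with only the 4 libraries compared and 331 with no minimum of sites, and 0 to 72 calls with 1 library left out. 5AZA minus saline had 1394 calls, 0 with limma, 0 without candidate fragment-end sites, 166 with only the 4 libraries compared, 629 in windows of 500 bp, 856 with a coverage minimum of 20 and 3824 with no minimum of sites. It had 0 to 1149 calls with 1 library left out, with 0 without saline 1 and 0 without saline 2. 5AZA minus sham had 1 call, 0 with limma, 0 without candidate fragment-end sites and 292 with no minimum of sites, and 1 to 147 with 1 library left out, the highest without 5AZA 1. For sites, the calls were 26 for saline minus sham, 16 for 5AZA minus saline and 14 for 5AZA minus sham. Limma gave 0 in each, and leaving out the deepest sites gave 3, 3 and 1. With 1 library left out they ran from 3 to 208, from 2 to 76 and from 6 to 107. The cause of these shifts was not tested.

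Segment differences have no call to lose, and these moved by more than the spread between libraries. With site medians, 5AZA minus saline was -4.99 points before Dlk1, +7.56 around the Meg3 start and -6.97 over the domain. 5AZA minus sham was then +3.49 before Dlk1, +0.118 in Dlk1, -7.11 from Dlk1 to the control region and +1.93 over the domain. Saline minus sham was +8.48 before Dlk1, +0.664 in Dlk1, -0.489 from Dlk1 to the control region, +2.85 from Meg3 onward, -23.5 around the Meg3 start and +8.89 over the domain. With pooled reads, 5AZA minus saline was +5.15 in Dlk1, -2.36 from Dlk1 to the control region and +2.97 over the domain, 5AZA minus sham +6.29 in Dlk1 and +3.91 over the domain, and saline minus sham -1.56 from Dlk1 to the control region, +2.48 from Meg3 onward and +0.933 over the domain. With a coverage minimum of 5 saline minus sham was +3.18 from Dlk1 to the control region and +3.09 from Meg3 onward, and with 20 it was -0.195 and -2.76, while 5AZA minus saline was -6.12 between the control region and Meg3. Without candidate fragment-end sites saline minus sham was +4.02 from Dlk1 to the control region.

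None of the windows and sites given by value whose sign changed was called. Without candidate fragment-end sites the window 110691001 had -0.338 points for 5AZA minus saline and -0.000588 for 5AZA minus sham. With 1 library left out, 5AZA minus saline ran from -6.78 to +0.179 points at 110688001, from -0.583 to +1.27 at 110691001, from -1.37 to +3.32 at 110698001, from -4.87 to +2.37 at 110764001, from -12.5 to +8.92 at 110779001 and from -22.9 to +0.179 at the site 110779103. 5AZA minus sham ran from -1.26 to +2.02 at 110688001, from -5.02 to +2.25 at 110764001, from -5.13 to +7.37 at the site 110764928 and from -11.9 to +11.2 at the site 110779103. Saline minus sham ran from -3.77 to +3.50 at 110764001, from -0.641 to +0.493 at 110787001, from -1.73 to +0.733 at the site 110691770 and from -3.64 to +8.86 at the site 110764928.

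Depth bears on the control region: sham 2 had 10 reads at 3 of its 4 covered sites. At windows of intermediate level, most simulated increases of 10 points were not recovered with 2 libraries per group. Of the 16 tested windows of the domain, 10 averaged 80% or more, where recovery was not simulated. Decreases and the site test were not simulated either.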

Other observations

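Sites around the Meg3 start that missed the coverage minimum were read unevenly. Within 2 kb of the start there were 20 of them, of which 7 to 17 had reads in a given library. Their pooled level was 64.4% of 118 reads and 52.7% of 641 reads in 5AZA 1 and 5AZA 2, 81.8% of 66 reads and 67.4% of 270 reads in saline 1 and saline 2, and 57.1% of 648 reads and 45.4% of 152 reads in sham 1 and sham 2. The libraries read different sites, so these pools were not compared.

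Neighbouring sites of the domain differed widely in the same libraries. At 110784274 the mean over the 6 libraries was 54.7%, and 94.3% at 110784283, a few bases on. At 110738617 and 110738646, between Dlk1 and the control region, the means were 55.9% and 47.5%, within a stretch whose highest site averaged 93.6%. These sites were chosen after their values were seen.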
